A study of Mus musculus with 32 samples.

Results

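The genes described here are the SR (serine and arginine rich) splicing factors and the heterogeneous nuclear ribonucleoproteins (hnRNPs) of the mouse hypothalamus. They were taken by name, as the protein-coding genes whose symbol is Srsf with a number or starts with Hnrnp. This gave 31 of the 55401 gene identifiers in the series, 11 of them Srsf and 20 Hnrnp. The question was whether a small difference with high-fat diet in Hnrnph1 and Srsf2 was shared by the families. Hnrnph1 and Srsf2 were selected on that diet difference, so their diet values are given as a description, without a test. The other 29 members entered by name alone, and differences between genotypes played no part in choosing any of them.

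The mice were males of the C57BL/6NTac strain. WT_CD mice were wild-type littermates on control diet (7 mice), WT_HFD were wild-type on a diet with 60% of its kilocalories from fat (8 mice), KO_CD were hemizygous Gpr101 knockouts on control diet (8 mice) and KO_HFD were knockouts on the high-fat diet (9 mice). Mice ate standard chow until the high-fat diet began at 7 weeks, and each library came from the hypothalamus of 1 separately labelled mouse. Age nearly followed diet: 6 WT_CD, 5 KO_CD, 1 WT_HFD and 1 KO_HFD mice were labelled 149 days, and the others 150 days. A difference between diets may therefore also be a difference between these age labels, and values with age in the fit are given beside the results they change.

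SR proteins bind short exonic sequences through their RNA-recognition motifs and recruit the spliceosome through a domain of repeated arginine and serine, which kinases phosphorylate. Proteins of the hnRNP type coat nascent transcripts, and many of them oppose exon inclusion where SR proteins favour it, although the direction depends on where they bind. Neurons depend on both for the splicing of ion channels, receptors and adhesion molecules. Many genes of both families limit their own output by splicing in a poison exon, which sends the transcript to nonsense-mediated decay.

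The annotation labels transcripts for such decay, and a label alone does not show a poison exon. Members also had more annotated transcripts, with medians of 7 for Srsf and 8 for Hnrnp genes, against 5 for protein-coding genes tested. At least 1 transcript labelled as a target of nonsense-mediated decay was annotated for 9 of 11 Srsf genes and 10 of 20 Hnrnp genes, against 26.2% of the 15571 protein-coding genes tested. A retained-intron transcript was annotated for 8 Srsf and 14 Hnrnp genes, against 54.0% of those protein-coding genes. The deposited values are sums per gene, so the use of these transcripts was not measured here.

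The sequences upstream of the 3 genes that the diet results turn on are shown first. They are 250 bases ending at the base before the start site, from RefSeq (GRCm38.p6), written 5′ to 3′ on the strand of the gene. Capitals mark 4 motifs searched on both strands: the TATA box TATAAA, the CCAAT box CCAAT, the ETS core CCGGAA and the cAMP response core TGACG. None of these motifs contains another.
Hnrnph1, chr11:50376740-50376989, plus strand: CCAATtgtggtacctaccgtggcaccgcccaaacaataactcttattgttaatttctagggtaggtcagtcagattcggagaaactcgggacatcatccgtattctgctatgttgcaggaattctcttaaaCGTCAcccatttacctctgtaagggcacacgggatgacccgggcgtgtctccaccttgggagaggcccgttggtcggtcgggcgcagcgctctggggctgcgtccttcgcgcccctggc
Srsf2, chr11:116853095-116853344, minus strand: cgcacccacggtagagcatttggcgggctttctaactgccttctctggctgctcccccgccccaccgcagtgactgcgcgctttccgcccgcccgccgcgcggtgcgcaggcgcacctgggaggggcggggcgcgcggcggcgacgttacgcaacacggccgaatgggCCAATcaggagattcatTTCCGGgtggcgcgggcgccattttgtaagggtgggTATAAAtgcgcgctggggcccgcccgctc
Srsf3, chr17:29032410-29032659, plus strand: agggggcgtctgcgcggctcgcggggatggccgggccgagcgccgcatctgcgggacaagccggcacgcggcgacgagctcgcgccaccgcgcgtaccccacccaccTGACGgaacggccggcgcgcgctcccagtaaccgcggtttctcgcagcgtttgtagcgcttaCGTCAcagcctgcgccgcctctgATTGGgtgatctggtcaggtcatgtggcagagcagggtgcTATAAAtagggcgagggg
Among the 41 upstream entries that RefSeq gave for 29 of the members, TATAAA was in 3, CCAAT in 20, CCGGAA in 15 and TGACG in 20. Of 32851 promoters of all genes, 4063 held TATAAA (12.4%), 11120 CCAAT (33.8%), 3952 CCGGAA and 5836 TGACG (17.8%). Srsf2 and Srsf3 each have a TATA box near the end of the sequence shown, and the Hnrnph1 sequence has none. The Srsf3 sequence runs past the annotated start of the gene at 29032628 to a RefSeq start site inside it. Its TATAAA lies past that annotated start. Hnrnph1 had 5 RefSeq start sites, and the entry shown lies directly before the annotated start of the gene. These matches are a description of letters, and binding of a factor was not measured.

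Hnrnph1 lies at chr11:50376990-50386528 on the plus strand, Srsf2 at chr11:116849901-116853094 on the minus strand, and Srsf3 at chr17:29032628-29043373 on the plus strand (GRCm38). The exons of Srsf2 overlap those of 2 genes on the opposite strand, by 460 bases with Mettl23 and by 288 with Mfsd11, of 2958 exon bases. The libraries were made by a stranded protocol, but the strand setting of the counting is not given in the sources used here, so reads of overlapping genes may not be fully told apart. The diet difference of Mettl23 was −0.05 ± 0.05 and that of Mfsd11 0.00 ± 0.02 on the log2 scale (± SE). At 6.03 and 33.2 CPM (reads per 1 M reads that fell on genes), both lay below Srsf2. Of its 100-base stretches, Hnrnph1 shared 2.11% with another gene, Srsf2 26.3% and Srsf3 20.7%. The share was 62.5% for Srsf4, 49.4% for Hnrnpf and 43.0% for Hnrnpa1, which have antisense genes or processed copies, and values of these genes are therefore uncertain. Hnrnpa3 shared 26.4%, Hnrnpm 19.9%, Hnrnpab 18.4% and Hnrnpk 17.5%. The same limit holds, to a lesser degree, for these members and for Srsf2 and Srsf3.

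Reads on genes ranged from 25.3 to 34.2 M per library (median 27.7 M). Gpr101, the deleted gene, had 2471 to 3472 reads in wild-type libraries and 0 or 1 in knockouts. All 31 members passed the filter on low counts, with 397 to 24664 reads in a library, and 19928 genes were tested in all. Marker genes of neurons, astrocytes, oligodendrocytes, microglia and endothelium were read in every library. Blood genes were higher on high-fat diet, and meningeal markers had the same sign but overlapping ranges and none called, as given below. In this bulk tissue, fewer cells of a type and less RNA per cell cannot be told apart. KO_HFD replicate 8 stood apart: the members summed to 7394 CPM there, against 6467 to 7060 in the other libraries, and 13 of the 31 members had their highest level of all 32 libraries in it. The mitochondrial mRNAs summed to 36616 CPM in this library, the lowest of all. Several counts of members are given with and without it, while values of single members include it unless stated.

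Both families were abundant in the hypothalamus. Per kilobase of exon, the median level was 28.4 CPM for Srsf and 38.2 CPM for Hnrnp genes, against 5.02 for the 15571 protein-coding genes tested. Srsf5 was the highest at 128 CPM per kilobase, followed by Hnrnpa1 at 110 and Hnrnpa2b1 at 108, which bind exonic and intronic silencers. Hnrnpa0 (81.2) and Hnrnpa3 (79.3) came next, so 4 of the 5 highest members were A/B-type hnRNPs. Hnrnph1, which binds runs of guanines, ranked 6 of 31 at 63.4, and Srsf2, a protein of the nuclear speckles, ranked 12 at 39.5. The lowest were Hnrnpr at 6.89, Hnrnpll at 5.54 and Srsf4 at 4.58, 27.9-fold below Srsf5. Neighbours in this order, such as Hnrnpa1 and Hnrnpa2b1 or Srsf2 and Hnrnpl (39.4), lay closer together than the spread between libraries.

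**Figure D1:**
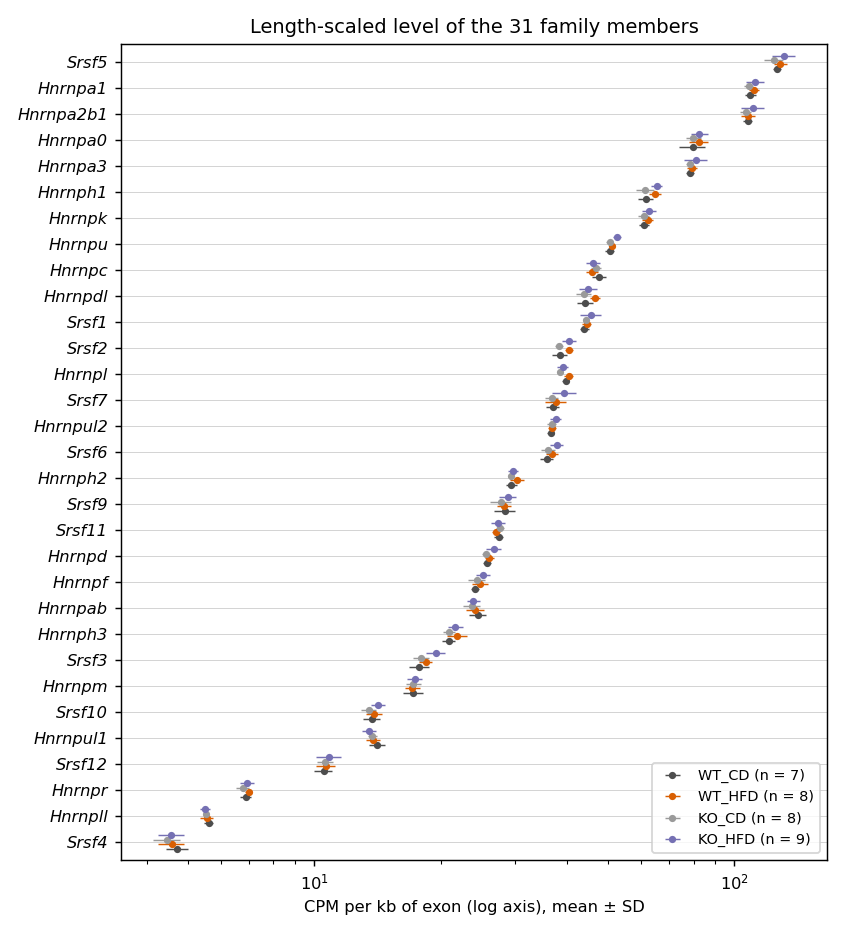
Level of each member in CPM per kilobase of exon (log axis), ordered by its mean over all libraries. Points are group means and bars 1 SD for WT_CD (7 mice), WT_HFD (8), KO_CD (8) and KO_HFD (9). Members range from 4.58 (Srsf4) to 128 (Srsf5), and the 4 groups lie close together for every member.

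The members varied little between mice of 1 group. The spread within groups is given as the percent change that 1 SD of the log2 values stands for. It ranged from 1.95% for Hnrnpu, which binds chromatin-associated RNA, to 7.11% for Srsf4, with a median of 3.71%. The median over protein-coding genes tested was 6.72%, or 4.88% for the 9039 that reached the level of the lowest member. Those 9039 were not matched on level, with a median of 10.35 CPM per kilobase, against 36.7 for the members. Summed over both families, the median was 6699 CPM in WT_CD, 6794 in WT_HFD, 6671 in KO_CD and 6785 in KO_HFD. The ranges overlapped, at 6467 to 6846, 6550 to 6962, 6492 to 6768 and 6606 to 7394. The families as a whole made up a similar part of the reads in every group.

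Hnrnph1 was higher on high-fat diet in both genotypes. Its lowest, median and highest normalized counts (reads divided by the size factor of the library) were 9684, 10107 and 10606 in WT_CD, and 10013, 10590 and 10894 in WT_HFD. In knockouts they were 9290, 10153 and 10664 on control diet and 10279, 10593 and 11091 on high-fat diet. The diets overlapped: 16 of 17 high-fat libraries were above the control-diet median, 7 were above every control-diet library and 6 of 15 control-diet libraries were below every high-fat library. Averaged over genotypes, the log2 difference was 0.08 ± 0.02 (SE), or 5.53%, and it was 0.07 ± 0.03 in wild type and 0.08 ± 0.02 in knockouts. With age as a covariate the difference was 0.05 ± 0.02. Among mice of 150 days alone, with 1 WT_CD and 3 KO_CD mice, it was 0.02 ± 0.03.

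Srsf2 was also higher on high-fat diet in both genotypes. The lowest, median and highest normalized counts were 2932, 3222 and 3279 in WT_CD, and 3218, 3347 and 3441 in WT_HFD. In KO_CD they were 3042, 3183 and 3261, and in KO_HFD 3128, 3373 and 3479. Of 17 high-fat libraries, 14 lay above all 15 control-diet libraries, 7 of each genotype, while 2 KO_HFD libraries lay below the control-diet median and 2 control-diet libraries lay below every high-fat library. The log2 difference was 0.07 ± 0.02 averaged over genotypes (5.23%), and 0.07 ± 0.03 in wild type and 0.07 ± 0.02 in knockouts. It was 0.09 ± 0.02 with age as a covariate and 0.09 ± 0.03 among mice of 150 days. When age was taken into account the value of Hnrnph1 shrank, and that of Srsf2 did not.

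**Figure D2:**
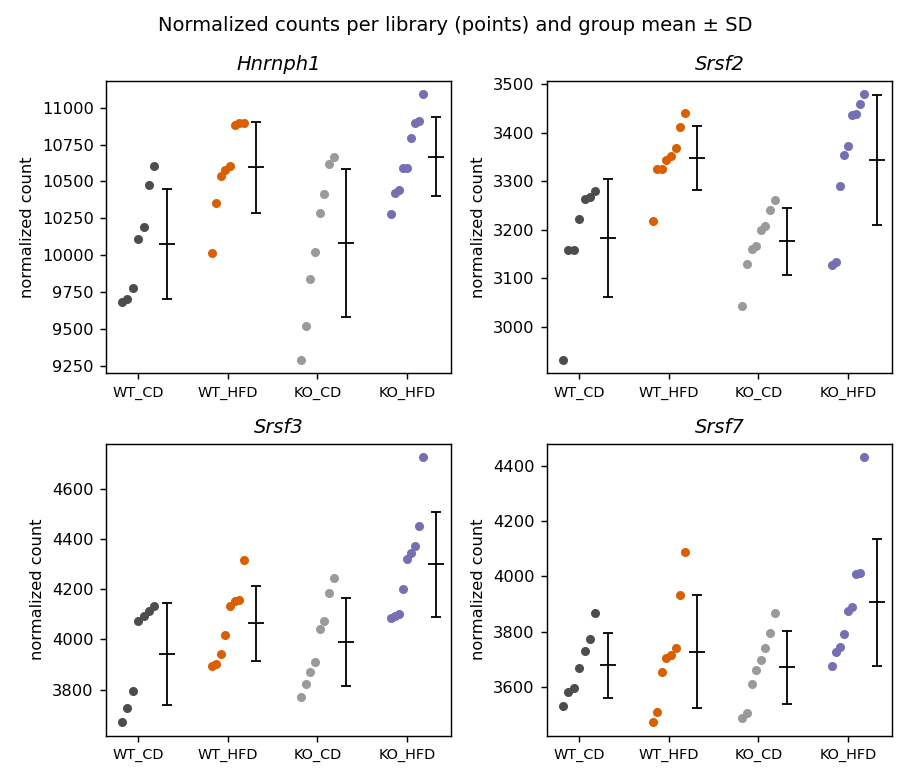
Normalized count in every library for Hnrnph1, Srsf2, Srsf3 and Srsf7, sorted by value within each group, with the group mean and 1 SD. The vertical axes do not start at 0. For Srsf2, 14 of the 17 high-fat libraries lie above every control-diet library, and for Hnrnph1 7 do. The highest Srsf7 point is 4432, in KO_HFD.

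Of the 29 members not chosen on diet, none passed the test for diet averaged over genotypes (limma with Benjamini-Hochberg adjustment, threshold 0.05). Over all genes, 0.336% passed it. The lowest adjusted p among the 29 was 0.114, for Srsf3. At an unadjusted p below 0.05 there were 10 of the 29 (34.5%), 9 higher and 1 lower on high-fat diet, against 11.1% of all genes. Without KO_HFD replicate 8 there were 7, against 9.99% of all genes. Without WT_CD replicate 2, the library of lowest summed level, there were 6, against 9.85%. Over the 32 fits that each left out 1 library, the count ranged from 6 to 13. Scaling to total reads and limma-voom each gave 13. The library number as a covariate and the replicate number as a block each gave 7. With age as a covariate there were 4, against 9.48%. Members covaried between libraries, as the correlations further on show, so these counts are not counts of independent genes.

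The direction was shared by most members, by small amounts. With high-fat diet, 22 of the 29 members not chosen on diet (75.9%) had a positive log2 difference, with a median of 0.02, against 49.4% of all genes tested, and 45.8% of the 9266 genes that reached the level of the lowest member. With the chosen pair included, 24 of 31 were above 0, and the median was 0.04 for Srsf genes (9 of 11 above 0) and 0.02 for Hnrnp genes (15 of 20 above 0), against 0.00 for all genes. In percent, the median of the 29 was 1.67% higher. Across every alternative processing, 22 to 24 of the 29 were above 0 and their median was between 0.02 and 0.03. For all 31, which include the chosen pair, the count was 24 to 26. The 29 members not chosen on diet thus mostly had the sign of the chosen pair, and none of the 29 passed the test. The pair was chosen in these same libraries, and within groups Hnrnph1 correlated positively with 24 of the other 30 members. The signs of the 29 are therefore not independent of that choice, and they are given as a description.

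Srsf3, the smallest SR protein, was the member closest to the chosen pair. Its lowest, median and highest normalized counts were 3669, 4072 and 4131 in WT_CD, 3892, 4076 and 4315 in WT_HFD, 3769, 3976 and 4245 in KO_CD, and 4086, 4322 and 4727 in KO_HFD. The wild-type medians were nearly the same, while all 9 KO_HFD libraries lay above the control-diet median of both genotypes together. The log2 difference was 0.08 ± 0.02 averaged over genotypes, 0.04 ± 0.03 in wild type and 0.11 ± 0.03 in knockouts, with adjusted p of 0.114, 0.777 and 0.250 (limma). With age as a covariate the averaged value was 0.04 ± 0.03, and among mice of 150 days it was 0.02 ± 0.04. Without KO_HFD replicate 8, which held the highest value, it was 0.07 ± 0.02.

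Srsf7, an SR protein with a zinc knuckle, had medians of 3667 in WT_CD, 3711 in WT_HFD, 3678 in KO_CD and 3875 in KO_HFD. Its ranges were 3533 to 3867, 3472 to 4090, 3489 to 3869 and 3675 to 4432, and its averaged difference was 0.05 ± 0.02. Leaving out each library in turn gave 0.04 to 0.06 for Srsf7. Srsf6 (0.05 ± 0.02), Srsf5 (0.05 ± 0.02) and Srsf10 (0.04 ± 0.02) had similar values. Srsf10 acts as a repressor of splicing when it is dephosphorylated. At the other end, Srsf11 was at −0.02 ± 0.02, with medians of 6543 and 6413 in wild type and 6578 and 6468 in knockouts on control and high-fat diet. Its ranges were 6341 to 6681 in WT_CD, 6209 to 6611 in WT_HFD, 6370 to 6771 in KO_CD and 6068 to 6783 in KO_HFD. Srsf4 was at −0.01 ± 0.04, with ranges of 430.7 to 508.8, 418.7 to 525.9, 410.7 to 501.1 and 417.0 to 503.0 in WT_CD, WT_HFD, KO_CD and KO_HFD. Srsf12, a low-level SR-like factor, was at 0.02 ± 0.03, with ranges of 850.0 to 981.5, 851.0 to 1018, 892.7 to 999.2 and 874.0 to 1068 in the same order. All of these groups overlapped.

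The paralogs of Hnrnph1 also bind runs of guanines. Their longest reading frames were identical to that of Hnrnph1 at 85.1% of aligned bases for Hnrnph2, 77.2% for Hnrnpf and 70.2% for Hnrnph3. Hnrnph3 had medians of 1878 in WT_CD (1752 to 1934), 1977 in WT_HFD (1777 to 2046), 1861 in KO_CD (1733 to 1952) and 1932 in KO_HFD (1752 to 2000). The averaged difference of Hnrnph3 was 0.05 ± 0.02, with 8 of 17 high-fat libraries above all control-diet libraries. Hnrnpf was at 0.04 ± 0.02, from medians of 2070 (1989 to 2121) to 2119 (1993 to 2231) in wild type and 2084 (1894 to 2233) to 2153 (2039 to 2263) in knockouts. Hnrnph2 was at 0.02 ± 0.02, from 3560 (3504 to 3797) to 3739 (3486 to 3904) in wild type and from 3607 (3546 to 3697) to 3619 (3467 to 3782) in knockouts. The closest paralog by sequence was thus not the closest by its diet difference, and none of the 3 passed the test. Adjusted p-values for Hnrnph2, Hnrnph3 and Hnrnpf were 0.628, 0.389 and 0.486 (limma).

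Among the other hnRNPs, Hnrnpdl, a relative of the AU-rich element binding protein Hnrnpd, had the next highest averaged difference at 0.05 ± 0.02. Its medians were 6028 in WT_CD (5447 to 6207), 6270 in WT_HFD (6046 to 6519), 5991 in KO_CD (5505 to 6326) and 6065 in KO_HFD (5594 to 6462). The difference was 0.07 ± 0.03 in wild type and 0.02 ± 0.03 in knockouts, with an interaction of −0.05 ± 0.04 (95% interval −0.13 to 0.03). Hnrnpc, which binds uridine tracts and coats nascent transcripts, was the lowest member at −0.05 ± 0.02, or −3.17% (adjusted p = 0.277, limma). It had medians of 5764 in WT_CD (5528 to 6067), 5553 in WT_HFD (5274 to 5834), 5643 in KO_CD (5491 to 5929) and 5522 in KO_HFD (5335 to 5911), and 3 of 17 high-fat libraries were above the control-diet median. Hnrnpul1, a relative of Hnrnpu, was at −0.04 ± 0.02, with medians of 3442 (3166 to 3674), 3339 (3160 to 3512), 3327 (3200 to 3435) and 3285 (2976 to 3413) in WT_CD, WT_HFD, KO_CD and KO_HFD. Hnrnpll, the paralog of Hnrnpl known from the splicing of a lymphocyte surface receptor, was at −0.02 ± 0.02, with medians of 1831 (1774 to 1900), 1791 (1747 to 1882), 1811 (1777 to 1863) and 1799 (1748 to 1865). Hnrnpm was at 0.00 ± 0.02 and Hnrnpab at −0.01 ± 0.02. The 12 members not named here had averaged differences between 0.01 and 0.04.

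**Figure D3:**
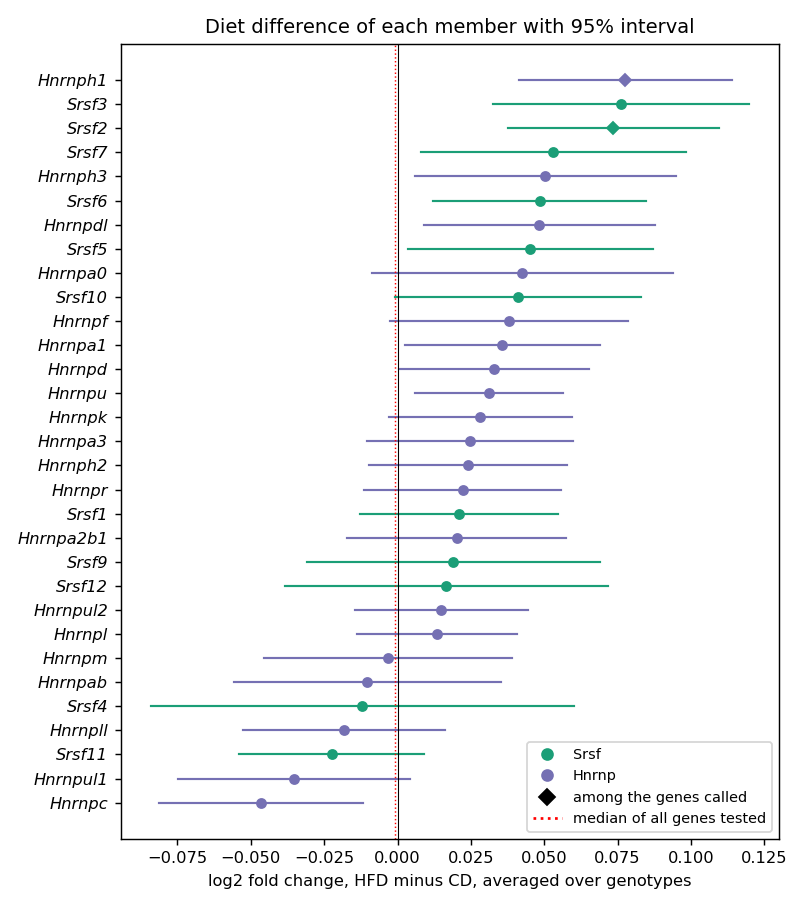
Diet difference of each member, high-fat minus control diet averaged over genotypes, on the log2 scale with its 95% interval. The dotted line is the median of all genes tested. Hnrnph1, Srsf3 and Srsf2 lie highest, between 0.07 and 0.08, Hnrnpc lies lowest at −0.05, and 24 of 31 points lie above 0.

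Within wild type, none of the 31 members passed the test, against 0.0251% of all genes. There were 22 members above 0, with a median of 0.02, and 20 of the 29 not chosen on diet, against 49.9% of all genes. Of the 29, 2 had an unadjusted p below 0.05, against 7.39% of all genes. These were Hnrnpdl at 0.07 ± 0.03 and Hnrnpc at −0.06 ± 0.03. Within knockouts none passed, against 0.0351% of all genes. There 27 members were above 0, with a median of 0.04, and 25 of the 29, against 49.4% of all genes. Of the 29, 8 had an unadjusted p below 0.05, all of them higher, against 7.04% of all genes. Without KO_HFD replicate 8 the last count was 4, against 5.86% of all genes, and the median of the 31 was 0.02.

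The larger values in knockouts were not shown to differ from those in wild type. In the interaction of genotype and diet, no member passed the test and the share of all genes that did was 0%. None of the 31 had an unadjusted p below 0.05, against 3.39% of all genes, and the lowest adjusted p was 0.999 (limma). The interaction was positive in 25 of 31 members, or 23 without KO_HFD replicate 8, with medians of 0.02 and 0.01. It was positive in 49.7% of all genes, and since members covaried, these are not counts of independent genes. It was largest for Srsf4 at 0.08 ± 0.07 (95% interval −0.06 to 0.22), followed by Srsf7 at 0.07 ± 0.04 (−0.02 to 0.16) and Srsf3 at 0.06 ± 0.04 (−0.02 to 0.15). For Srsf2 it was 0.00 ± 0.04 (−0.07 to 0.07) and for Hnrnph1 0.01 ± 0.04 (−0.06 to 0.08).

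**Figure D4:**
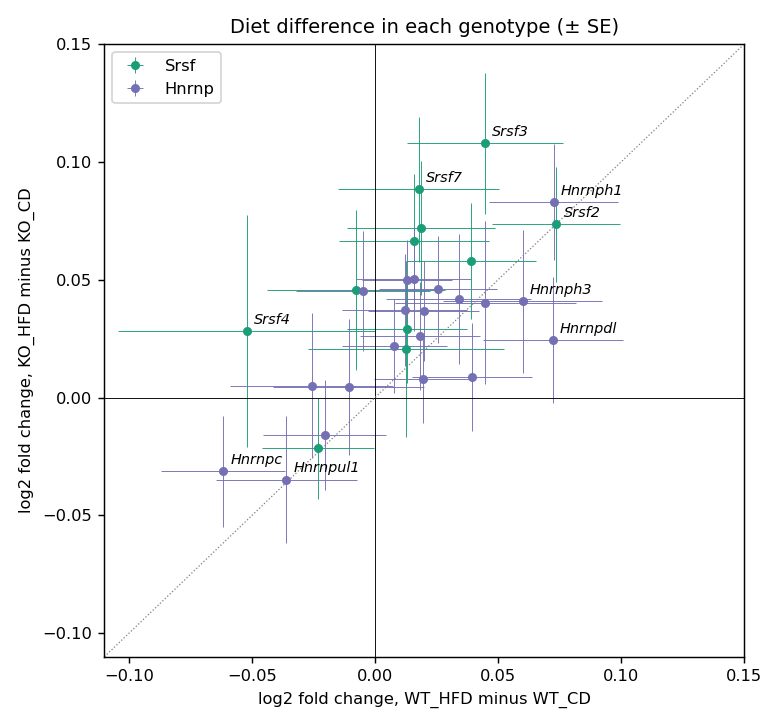
Diet difference of each member in wild type (horizontal axis) and in knockouts (vertical axis), as log2 differences with 1 SE in each direction. The dotted line marks equal values. Hnrnph1 and Srsf2 lie near it, at 0.07 and 0.08 and at 0.07 and 0.07, while Srsf3 and Srsf7 lie above it.

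Loss of Gpr101 was not accompanied by a change of any member that passed the test. On control diet 0 of 31 members passed, against 0.00502% of all genes. That share was 1 gene, the deleted gene Gpr101 at a log2 difference of −11.47, as was the same share in the genotype comparisons below. None of the 31 had an unadjusted p below 0.05, against 4.12% of all genes. There 13 members were above 0, against 49.8% of all genes. On high-fat diet 0 passed, against 0.00502% of all genes. There 21 members were above 0, against 48.5% of all genes, and 18 without KO_HFD replicate 8. An unadjusted p below 0.05 was found for 4 of 31 (12.9%), against 5.15% of all genes. Averaged over diets 0 passed, against 0.00502% of all genes, and 19 were above 0, against 48.3% of all genes. An unadjusted p below 0.05 was found for 2 (6.45%, against 5.72% of all genes). The lowest adjusted p was 0.758 (limma), for Hnrnpl. Hnrnpl, which binds CA repeats, had normalized counts of 6413 to 6773 in WT_CD and 6523 to 7079 in WT_HFD, and of 6359 to 6544 in KO_CD and 6320 to 6760 in KO_HFD. Its medians were 6650, 6678, 6451 and 6460, and the genotype difference was −0.04 ± 0.01. Srsf4 was at −0.04 ± 0.04, within its spread, and Srsf3 at 0.05 ± 0.02. For Hnrnph1 the genotype difference was 0.01 ± 0.02 (−0.03 to 0.04) and for Srsf2 0.00 ± 0.02 (−0.04 to 0.03).

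Most pairs of members moved together between mice of the same group. Over the 32 libraries, after the mean of each group was removed, the median Pearson correlation of the 465 pairs of members was 0.26, from −0.62 to 0.88, and 377 pairs were above 0. The highest was between Hnrnpa2b1 and Srsf7 (0.88), followed by Hnrnpa2b1 with Srsf1 (0.85) and Srsf1 with Srsf7 (0.84). Hnrnpul1 was negatively correlated with 24 of the other 30 members, most strongly with Srsf6 (−0.62) and Hnrnpa2b1 (−0.50), and positively with Srsf11 (0.54). Srsf4 was likewise negatively correlated with 23 of the other 30. Without KO_HFD replicate 8 the median was 0.25 and the highest pair, again Hnrnpa2b1 and Srsf7, was at 0.82. Each pair shares the same libraries, sizing and RNA preparation, and these correlations are a description. No value for pairs of genes outside the families is given beside them.

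Hnrnph1 and Srsf2 differed in how they followed the families. Hnrnph1 had a median correlation of 0.27 with the other 30 members, against 0.00 with all other genes tested, and was closest to Srsf6 (0.68), Srsf3 (0.64) and Hnrnpa2b1 (0.64). Srsf2 had a median of 0.08 with the other members and was closest to Srsf10 (0.48) and Hnrnpk (0.46). Between themselves the correlation was 0.03 (Spearman 0.02), with a permutation p of 0.866 for Pearson and 0.912 for Spearman (two-sided, 100000 permutations within groups, 1 relation tested, so adjusted values are the same). Without the 2 libraries farthest from the median of Hnrnph1 it was 0.06. Within groups it was 0.39 in WT_CD, 0.48 in WT_HFD, −0.43 in KO_CD and −0.12 in KO_HFD. Mice with more Hnrnph1 in a group were thus not in general those with more Srsf2.

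Among 14045 other genes with a symbol that is no predicted-gene name and at least 1 CPM, the patterns most like that of Hnrnph1 across the 32 libraries were those of Eif4g2 (0.75) and Caprin1 (0.74), both translation regulators, Rdh12 (0.72), Ythdc1 (0.72) and Etf1 (0.71). For Srsf2 they were Diaph3 (0.64), Chp1 (0.64), Mrps36 (0.63), Cmya5 (0.61) and Ube2l6 (0.61). None of these 10 genes passed the test for diet, and they are the highest of many correlations.

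**Figure D5:**
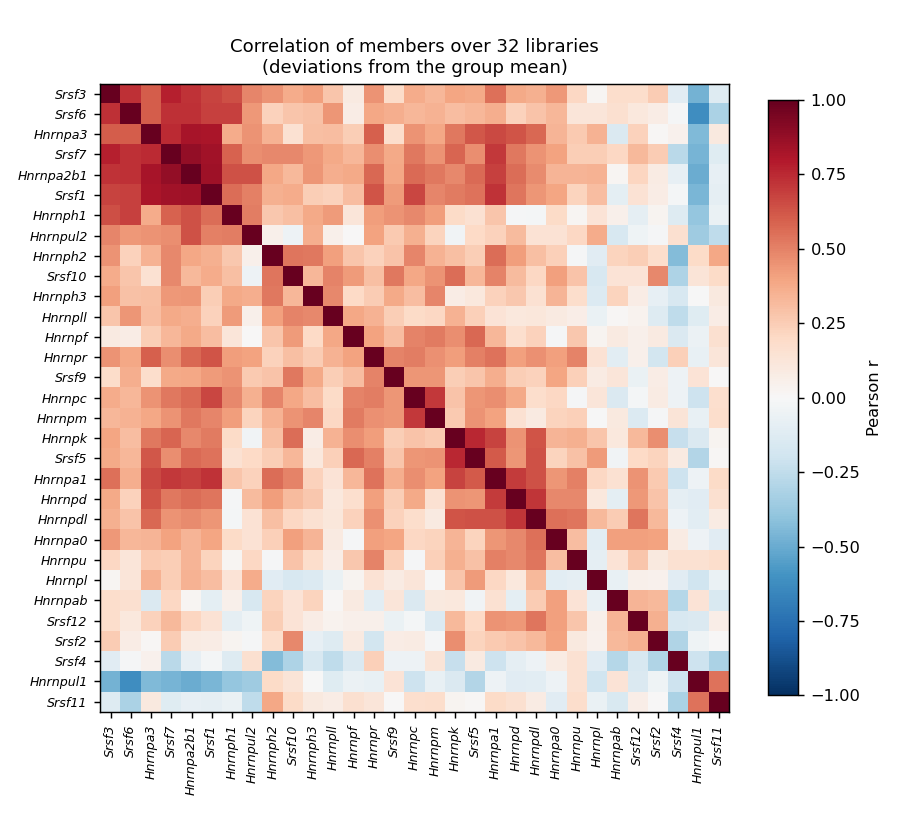
Pearson correlation of every pair of members over 32 libraries after removal of group means, from −1 (blue) to 1 (red), with members ordered so that similar ones are adjacent. A block with Srsf3, Srsf6, Hnrnpa3, Srsf7, Hnrnpa2b1 and Srsf1 lies at the top left, Hnrnph1 is next to it, and Srsf2, Srsf4, Hnrnpul1 and Srsf11 lie at the far end.

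Other splicing genes are given for 5 lists, which do not cover all splicing factors, and no test compared them with the members. In none of the 5 did a gene pass the test for diet averaged over genotypes (limma). Of 10 kinases and import factors of SR proteins, 5 were above 0 and 2 had an unadjusted p below 0.05, a mark that 11.1% of all genes reached. Clk1, which phosphorylates SR proteins, was at 0.14 ± 0.03 (adjusted p = 0.082, limma) and its relative Clk4 at 0.08 ± 0.02 (adjusted p = 0.116). SR-related proteins had 16 of 22 above 0 and 6 with an unadjusted p below 0.05 (Tra2a 0.09 ± 0.03, Srrm1 −0.04 ± 0.01), a share above 0 near that of the members. The core spliceosome had 17 of 37 above 0 and 3 with such a p (Prpf8 −0.05 ± 0.02, Aqr −0.05 ± 0.02). Neuronal and other regulators had 14 of 28 above 0 and 7 with such a p (Mbnl1 0.06 ± 0.02, Ptbp3 0.08 ± 0.03). Of the nonsense-mediated decay factors, 6 of 10 were above 0 and 0 had such a p.

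Several lists that touch RNA quality or tissue makeup are given beside these values. Both cold-inducible RNA-binding proteins were above 0 (Rbm3 0.15 ± 0.04, adjusted p = 0.146; Cirbp 0.02 ± 0.05). Of 8 nuclear long noncoding RNAs 3 were above 0 (Malat1 was at −0.13 ± 0.06), and of 13 mitochondrial mRNAs 1 was, and none of these passed the test. Of 5 blood genes, 4 were called higher on high-fat diet. Summed, the blood genes had medians of 477 CPM (340 to 566) in WT_CD, 684 (521 to 1422) in WT_HFD, 469 (321 to 722) in KO_CD and 694 (529 to 1262) in KO_HFD. All 7 meningeal markers were above 0 and none was called, with summed medians of 51.4, 97.4, 60.6 and 71.6 CPM and ranges of 46.0 to 120.2, 40.4 to 204.1, 39.2 to 170.0 and 47.0 to 205.6 in the same order. Above 0 were 3 of 11 neuronal, 3 of 7 astrocyte, 3 of 8 oligodendrocyte, 5 of 7 microglial, 4 of 6 endothelial, 2 of 6 ependymal and choroid plexus and 3 of 4 pituitary markers, none called. No marker was at 0 reads throughout. The part of blood or meningeal RNA in the diet differences of the members was not tested.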

How the data were processed

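Total RNA of 32 hypothalami was sequenced in stranded pairs, and the labels give the groups. The authors deposited log2 values of normalized counts per gene and library. Per the submitters' processing notes, the build was GRCm38 and the tools included STAR 2.7.6a and DESeq2 1.28.1, with Trim Galore 0.6.2 and cutadapt 2.10. How reads were counted, and by which strand and annotation, is not given in the sources used here. Undoing the log2 and the library step returned whole reads for 100.0% of values (tolerance 1e-06 reads). Of 55401 identifiers, 55141 had a symbol in a GRCm38 annotation (GENCODE M21), and 260 did not.

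Tests used limma 3.58.1 (R 4.3.3) on log2(normalized count + 1), for genes with a normalized count of at least 10 in at least 7 libraries. The 4 groups shared 1 linear model with no covariate, and variances were moderated robustly along an intensity trend. Two-sided p-values were adjusted over all 19928 genes (Benjamini-Hochberg), and a gene was called below 0.05. Intervals are at 95%. The fit was checked on simulated data. Levels were set per kilobase of exon, and other values compare the same gene between libraries.

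The members and gene lists were chosen with earlier results of these data known. The lists were kinases and importer of SR proteins, SR-related proteins, core spliceosome, splicing regulators, nonsense-mediated decay factors, cold-inducible proteins, nuclear noncoding RNAs, mitochondrial mRNAs, and markers of 9 cell types or tissues. Values in full are given for Srsf2, for Hnrnph1 and its paralogs, for the 3 members of largest and of smallest diet difference in each family, and for the member of largest genotype difference in each family. For each splicing list reported here, called genes and the 2 of lowest p for diet are named. Alternatives were other pseudocounts, filters, scaling, limma-voom, covariates and leaving out libraries. A further list is not reported here. No proteins are printed, since no protein sequences were used here.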

Additional observations from a re-analysis of the deposited data

Results flagged for a closer look

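In 124 checks of 1 member in 1 group, 5 single libraries lay farther from the rest of their group than a test for outliers (Dixon, 95%) allows. Chance alone flags about 1 in 20 groups.

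The normalized count of Hnrnpl was 7079 in WT_HFD replicate 4, where the next highest was 6757. Srsf4 was at 525.9 in WT_HFD replicate 5, with the next highest at 465.0. In KO_HFD replicate 8, Srsf7 was the highest of its group at 4432, with the next at 4011, and Hnrnpul1 the lowest at 2976, with the next at 3207. The lowest WT_CD value of Srsf2 was 2932, in replicate 2, with the next at 3158. Without that library the diet difference of Srsf2 averaged over genotypes was 0.06 ± 0.02 (SE) on the log2 scale, against 0.07 ± 0.02 with it.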

How the results depend on the processing

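For diet averaged over genotypes, none of the 29 members not chosen on diet passed the test under any alternative. The chosen pair accounts for every count of members here, which is a description and no test of the pair. The count was 2 in the reported fit. It was 1 with no filter on low counts (Hnrnph1), 0 with age as a covariate, 0 with the library number as a covariate and 0 among mice of 150 days only, where no gene of any kind passed. Leaving out each library in turn gave 0 to 2 members, with Hnrnph1 called in 18 of the 32 fits and Srsf2 in 7. Over those 32 fits the log2 difference was 0.07 to 0.08 for Hnrnph1 and 0.06 to 0.08 for Srsf2. The number of members that passed was 0 under every alternative for diet in wild type, diet in knockouts, genotype on either diet or averaged, and the interaction. Over all genes, diet averaged over genotypes called 67 in the reported fit, 43 with no filter, 12 with age as a covariate and 41 to 87 when 1 library was left out. Other pseudocounts, a stricter filter, scaling to total reads and limma-voom left the count at 2.

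With the replicate number as a replicate block, the count of members was 1 (Hnrnph1), and 45 genes of all passed. Libraries of the same number had a median correlation of 0.01 (−0.19 to 0.32, 45 pairs), against 0.00 for different numbers (338 pairs). Still, 11 of 32 libraries correlated best with a library of their own number, although pairs of the same number were the minority. Whether the numbers stand for a shared step of processing was not tested.

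Among mice of 150 days only, 1 WT_CD mouse remained, assumed to vary like the other groups. The wild-type diet difference was then 0.01 for Hnrnph1, −0.02 for Srsf3, −0.02 for Hnrnpl, −0.07 for Hnrnpll, 0.15 for Srsf12 and 0.09 for Srsf4. These differ from the reported values, and the cause was not tested. Depth did not limit members to few reads, since the least was 397 in a library.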
